A study of Homo sapiens with 2 samples.

Results

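PROX1 peaks at the RUNX1 locus were taken as all peaks of chromosome 21 whose centre lay from 35000000 to 35999999 on the hg18 build, in the authors' list of PROX1 chromatin immunoprecipitation and sequencing (ChIP-seq) peaks. This rule gave 71 of the 23450 peaks of the list. The window was chosen by its number of peaks, a measured value of this same list, so its count, tags, folds and spacing are described here with no test. The cells were SW480R, which are derived from SW480, a long-established colorectal cancer cell line of human origin. No treatment, genotype or time differs between the samples. One ChIP library, pooled from 3 independent immunoprecipitations made with 5 µg of a goat antibody to PROX1, was compared with 1 input library, made from DNA that had not been immunoprecipitated. There was thus 1 value per peak, with no replicate spread, and the 95% intervals below (exact Clopper-Pearson) cover counting error only and take neighbouring peaks as independent.

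RUNX1 (Entrez gene 861, also called AML1) encodes the DNA-binding subunit of core-binding factor, which binds DNA together with its partner CBFB and is required for definitive blood formation. It is also expressed in several epithelia. Its gene is long, lies on the minus strand and is transcribed from a distal and a proximal promoter, with a long intron between them that holds known blood enhancers. PROX1 is a homeobox transcription factor of the lymphatic, liver and lens lineages that is switched on in part of colorectal tumours downstream of Wnt signalling. The gene was placed at about chr21:35082000-35343500, bounds that were set with the rule for the window, are approximate and span 261.5 kb. Because it is read from the minus strand, the upper bound stands for its distal start, larger coordinates are upstream and smaller ones downstream. In the RefSeq table of a later build (GRCh38.p14), used for names and order only, 2 further genes, RUNX1-AS1 and RUNX1-IT1, are nested in RUNX1. Upstream, 10 genes and no protein-coding one stand between RUNX1 and SETD4, a SET-domain gene: 4 long non-coding RNAs, 5 pseudogenes and the microRNA gene MIR802. On the downstream side 3 long non-coding RNA genes separate RUNX1 from CLIC6, which encodes a chloride intracellular channel protein. No hg18 exon or promoter positions and no hg18 sequence were used here, so peaks are placed against the gene bounds alone and no sequence under them is printed.

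The RUNX1 window was among the fullest in the genome. Among the 2418 windows of 1 Mb with at least 1 peak it ranked 4 by number of peaks. The median window held 8 peaks (interquartile range 3 to 13), and the fullest held 121. On chromosome 21, 29 windows held peaks, with a median of 9, and the next fullest, 42 to 43 Mb, held 35. The window carried 18.6% of the 382 peaks of that chromosome and 21.9% of the tags inside them. Its neighbours were less full, with 22 peaks at 34 to 35 Mb and 26 at 36 to 37 Mb. The 2 windows directly above it held 72 peaks each (chromosome 14 at 53 to 54 Mb, chromosome 8 at 129 to 130 Mb), and the next below held 66 (chromosome 8 at 126 to 127 Mb).

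**Figure D1:**
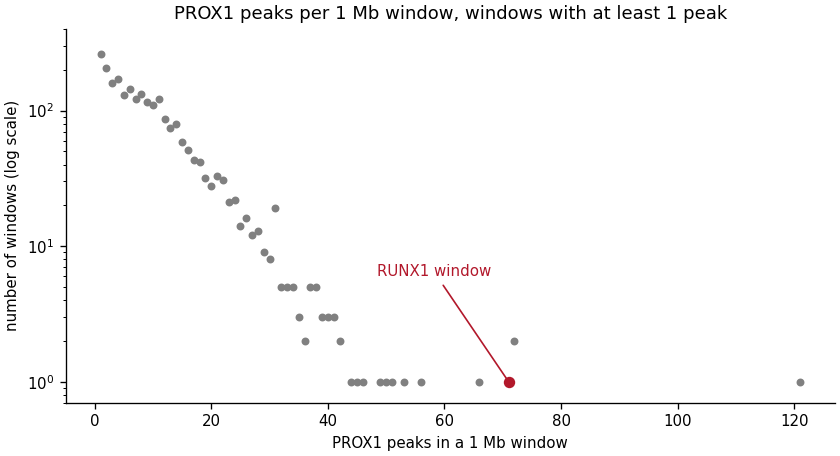
Number of 1 Mb windows (log scale) against the number of PROX1 peaks they hold, one grey point for each number that occurs, over windows with at least 1 peak. The red point is the RUNX1 window with 71 peaks, far above the median of 8 and below the fullest window with 121.

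Per peak, the medians of tags and fold were above those of the nuclear list, and the folds were less exceptional than the tags. The peaks of the window held 4255 tags in sum, rank 4 of all windows, against a median of 231.5. This sum rises with the number of peaks, by which the window was chosen. A tag is a sequenced fragment end counted in a peak, and the tag counts are not normalized. The median peak of the window had 43 tags (interquartile range 24 to 78.5, range 13 to 400) and a fold over input of 25.06. Over all 23417 nuclear peaks the medians were 25 tags and a fold of 19.05. Among the 978 windows with 10 or more peaks, the RUNX1 window ranked 43 by median tags and 80 by median fold.

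A peak is called strong here if its fold was at least 26.06, 2 times the lowest one listed. Such peaks numbered 31 of 71 (43.7%, interval 31.9 to 56.0). Over all nuclear peaks the share was 30.3%, and on chromosome 21 outside the window it was 29.9% (93 of 311, 24.9 to 35.33). By number of strong peaks, which also rises with the number of peaks, the window ranked 2 in the genome. By their share it ranked 155 of 978. Of its peaks, 2 had folds of at least 100, as had 0.961% of all nuclear peaks. The neighbouring windows had shares of 40.9% at 34 to 35 Mb (9 of 22, 20.7 to 63.6) and 46.2% at 36 to 37 Mb (12 of 26, 26.6 to 66.6). Of the windows nearest in number of peaks, that on chromosome 14 had 47.2% (35.33 to 59.3), with a lower median of 28 tags. Those on chromosome 8 had 29.2% and 24.2%, with medians of 20.5 and 19.5 tags. On chromosome 21, the second fullest window, 42 to 43 Mb, had a higher median of 50 tags, against 43 in the RUNX1 window. The windows at 34 to 35 Mb and 36 to 37 Mb had lower medians, 34.5 and 27.5 tags. The differences between windows were not tested, since all were ranked on the same list.

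Most of the RUNX1 peaks lay in groups. Joining peaks whose edges were within 10 kb left 16 places: 4 single peaks, 2 pairs and 10 groups of at least 3. In all, 67 of the 71 peaks shared their place with another, whereas 43.4% of all nuclear peaks stood alone. The median distance between neighbouring centres was 2680 bp, against 26240 bp over the nuclear list. Of the 70 distances in the RUNX1 window, 20 were under 500 bp (28.6%, against 14.3% over the nuclear list). A window picked for its number of peaks must in part show few lone peaks and short distances. The 2 windows with 72 peaks each had 21 places, with median distances of 2600 bp (chromosome 14) and 4200 bp (chromosome 8). The window with 66 peaks had 21 places and a median of 4850 bp. In the RUNX1 window a further 4 distances were from 500 bp to under 1 kb, 31 from 1 kb to under 10 kb, and 15 were 10 kb or more. The shortest was 120 bp, between the peaks at chr21:35194631-35194671 and chr21:35194751-35194791 inside the gene.

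Peaks were densest inside RUNX1. The gene makes up 26.2% of the window and held 34 peaks (47.9%) with 53.3% of the tags, which is 13.002 peaks per 100 kb. The 656.5 kb upstream held 31 peaks at 4.72 per 100 kb, and the 82 kb on the downstream side held 6 at 7.32 per 100 kb. Outside a run of 22 peaks, described below, the gene held 5.97 per 100 kb, fewer than the downstream side. Median tags, not matched for input (given by input level below for the gene and upstream), were 53 inside, 27 upstream and 54.5 downstream. Folds did not follow the same order, with medians of 24.56, 25.06 and 54.635. Strong peaks made up 14 of 34 inside (41.2%, interval 24.6 to 59.3), 12 of 31 upstream (38.7%, 21.9 to 57.8) and 5 of 6 downstream (83.3%, 35.9 to 99.6), and the 3 intervals overlapped.

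**Figure D2:**
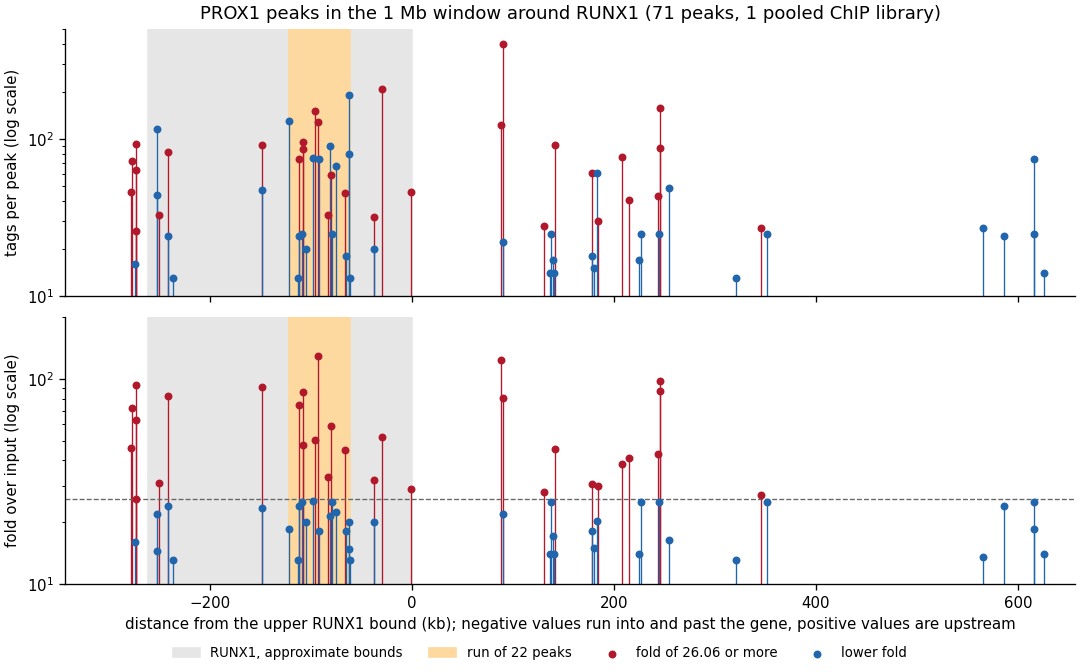
Tags (top) and deposited fold over input (bottom), both on log scales, of each of the 71 peaks against the distance in kb from the upper RUNX1 bound, with positive distances upstream. Grey marks the approximate gene, orange the run of 22 peaks, red points strong peaks (fold of 26.06 or more, dashed line) and blue points the others; peaks thin out beyond the group near 245 kb upstream, and the peak with 400 tags stands 89.57 kb upstream.

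The main feature of the gene body was a run of 22 peaks at chr21:35221171-35281811. It spanned 60.64 kb, which is 23.2% of the gene's length, and held 64.7% of the peaks and 66.7% of the tags inside the gene. Its upper end lay 61.69 kb from the upper gene bound and its lower end 139.17 kb from the lower one, so it sat wholly within the gene. At 100 kb resolution the stretch from 35200000 to 35300000, which holds the whole run, ranked 3 by peaks among the 10069 stretches of the genome with a peak. Without the run, the window would have kept 49 peaks and ranked 9, with a median of 32 tags and 46.9% strong peaks (23 of 49).

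The strongest peak of the run, and of the window, lay near its middle at chr21:35250711-35250751, with 128 tags and a fold of 128.32, which ranked 87 in the whole list. It was followed, 520 bp further from edge to edge, by a wide peak of 260 bp at chr21:35251271-35251531 with 74 tags and a fold of 18.04. The next highest fold of the run, 86.21, belonged to the peak with 86 tags at chr21:35235631-35235671, whose neighbour at chr21:35235391-35235511, 200 bp away by the centres, had 95 tags and a fold of 47.62. Another strong site, at chr21:35231211-35231271, had 74 tags and a fold of 74.18, with weaker peaks of 13 and 24 tags on its sides. The 3 highest folds of the run thus lay in its lower and middle parts.

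Between and beyond them, tags and folds came apart. The peak at chr21:35281211-35281251, near the upper end, had the most tags of the run, 191, at a fold of 14.73. At the lower end, the outermost peak at chr21:35221171-35221211 had 129 tags at a fold of 18.47. The peak at chr21:35247091-35247131 had 150 tags at a fold of 50.12. The peaks with 191 and 129 tags were thus rich in tags with folds below the nuclear median of 19.05, while the peak with 150 tags was high on both scales. The upper end closed with peaks of 80 tags (fold 20.05) and, outermost, 13 tags (fold 13.03).

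**Figure D3:**
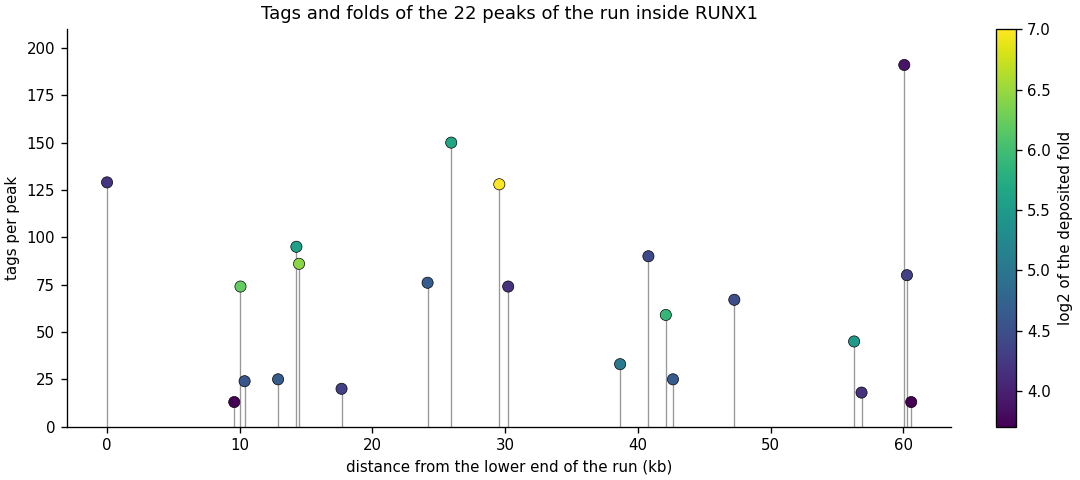
Tags per peak (linear axis from 0) of the 22 peaks of the run against the distance in kb from its lower end, coloured by the log2 of the deposited fold. The peak with 191 tags near the upper end and that with 129 tags at the lower end are dark (folds of 14.73 and 18.47), and the brightest point is the peak with 128 tags and a fold of 128.32.

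Of the other peaks of the run, that at chr21:35263251-35263291 was strong, with 59 tags and a fold of 59.15. More tags at lower folds were listed at chr21:35261851-35262071 (90 tags, fold 21.55), chr21:35245311-35245351 (76 tags, fold 25.4) and chr21:35268411-35268451 (67 tags, fold 22.39). Also strong were the peaks at chr21:35259811-35259851 (33 tags, fold 33.08) and chr21:35277431-35277471 (45 tags, fold 45.11). The remaining 4 peaks had 18 to 25 tags and were not strong. Over the whole run, distances between centres ranged from 200 bp to 9580 bp with a median of 1780 bp, 8 of 21 being under 1 kb. Counting peaks within 1 kb once left 14 sites, of which 8 were single peaks. Peaks of the listed minimum width, 40 bp, made up 16 of the 22 (72.7%), against 57.2% of all nuclear peaks.

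Against the other long runs, the RUNX1 run had a high median of tags per peak and was loosely spaced. It ranked 3 in number of peaks, after runs of 41 and 29 peaks on chromosome 8. In length it ranked 2, and in summed tags 6. Of the 42 runs with 10 or more peaks it had the highest median tag count, 70.5, where the median over these runs was 32.5. These medians were not matched for input. By median fold, 24.56, it ranked 16, and by share of strong peaks, 36.4% (8 of 22, interval 17.2 to 59.3), it ranked 25. It held 3.63 peaks per 10 kb, rank 37 of 42, against a median of 5.22. The run next in size, 18 peaks over 40.44 kb on chromosome 19, had a median of 53.5 tags, a median fold of 27.8 and 10 strong peaks.

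The number of input tags behind each peak was inferred as the tags times 1.0025, divided by the fold. It is tied to the tag counts in advance, because no fold below 13.03 is listed and a higher input thus requires more tags. In the run, 9 of 22 peaks (40.9%, interval 20.7 to 63.6) had an inferred input of 2 or more, rank 8 of the 42 long runs, where the median was 27.3%. In the window it was 21 of 71 (29.6%, 19.3 to 41.6) and over all nuclear peaks 22.7%. An input of 5 or more was found in 2 peaks of the run and 4 of the window (5.63%, 1.56 to 13.8), against 4.42% of nuclear peaks. The highest, 13, belonged to the peak with 191 tags. The part of this input in the tag counts of the run was not tested.

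Only at the lowest inferred input could the RUNX1 peaks be set beside the rest at a like input. Of the 71 peaks, 46 were at the lowest inferred input of 1, which may stand for 0 or 1 input tags. These had a median of 25 tags, against 20 for the 16839 nuclear peaks at that level, and 45.7% were strong against 32.6%. The 13 peaks of the run at this level also had a median of 25 tags, as had the 33 outside it. The 9 other peaks of the run had medians of 80 tags (7 peaks with an input below 5) and 160 tags (2 peaks at 5 or more). At these inputs more tags are required for a peak to be listed. Peaks between the lowest input and 5 had a median of 74 tags in the window (21 peaks) and 45 in the nuclear list. This class and that of 5 or more span unlike inputs, which were not matched. Inputs of 3 or more made up 19.7% of the window's peaks and 11.7% of nuclear peaks. Inside the gene they made up 29.4%, and upstream 12.9%. Inside the gene and upstream of it, peaks at the lowest input had equal medians of 25 tags (19 and 21 peaks). Those between it and 5 had medians of 75 tags inside (12 peaks) and 61 upstream (9 peaks). At 5 or more, the 3 peaks inside had a median of 129 tags and the 1 upstream had 400. The lowest input held 55.9% of the peaks inside and 67.7% of those upstream.

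**Figure D4:**
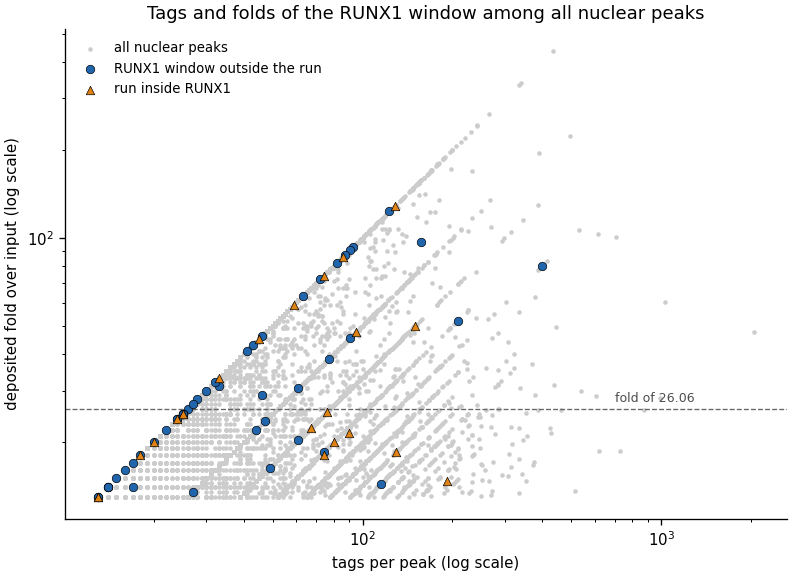
Deposited fold against tags, both on log scales, for all nuclear peaks (grey), the 49 peaks of the RUNX1 window outside the run (blue circles) and the 22 of the run (orange triangles); the dashed line is the fold of 26.06. The upper diagonal holds peaks at the lowest inferred input, where the fold is set by the tags, and the run's peaks with 129 and 191 tags lie far to the right and below it.

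Elsewhere in the gene, 12 peaks lay in 4 places at 5.97 peaks per 100 kb. Near the distal start, 1.42 kb inside the upper bound, a single peak at chr21:35342011-35342151 had 46 tags and a fold of 29.07. As the bound is approximate, this distance is too. Between it and the run, the peak at chr21:35313851-35313891 had 208 tags, the second highest count of the window, at a fold of 52.13, and a pair near chr21:35305951-35306211 had 20 and 32 tags.

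The other end of the gene held the remaining peaks. A pair 26.38 kb below the run, at chr21:35194631-35194671 and chr21:35194751-35194791, had 47 and 91 tags at folds of 23.56 and 91.23. It was separated by 87.68 kb without a listed peak from 6 peaks near the gene's downstream end, at chr21:35090811-35106951. In that group the peak at chr21:35101831-35101871 had 82 tags and a fold of 82.2. Another peak of the group, at chr21:35091171-35091211, had more tags, 115, but its fold was 14.41 (inferred input 8), and the widest peak of the window, 380 bp at chr21:35092291-35092671, had 33 tags and a fold of 31.08.

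Past the downstream end, all 6 peaks stood in 1 compact group of 5.28 kb at chr21:35064911-35070191, 11.83 kb from the lower gene bound at its nearest. They had 46, 72, 16, 26, 93 and 63 tags from the lower to the upper end, each at the lowest inferred input. The strongest, at chr21:35069951-35070091, had a fold of 93.23, the fourth highest of the window. All but the peak of 16 tags were strong, and that of 26 tags lay exactly at the limit of 26.06. The rest of this side, 64.93 kb up to the window's edge, held no listed peak.

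Upstream of RUNX1, no peak was listed for 87.74 kb, counted to the centre of the first. Then came a group of 3 that held the peak with the most tags in the window, at chr21:35431191-35433471. Its middle peak, at chr21:35432991-35433151, had 400 tags, which ranked 27 in the whole list, at a fold of 80.2 (inferred input 5). The lower one, at chr21:35431191-35431291, had 123 tags and a fold of 123.31, the second highest fold of the window, and the upper one had 22 tags. These 3 peaks held 12.8% of the window's tags.

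Further upstream lay 4 groups with 6, 5, 4 and 5 peaks. The groups at chr21:35474551-35484791, chr21:35521391-35527171 and chr21:35550911-35570271 were modest, with highest folds of 45.61, 30.58 and 41.1. The group at chr21:35586551-35597451 was stronger. There the peaks at chr21:35588571-35588771 (157 tags, fold 97.24) and chr21:35588871-35589031 (87 tags, fold 87.22) stood 280 bp apart, about 245 kb upstream of the gene bound, and were 200 and 160 bp wide.

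Beyond it lay 8 peaks, of which 1 was strong. After 66.94 kb with none, 3 peaks of 13, 27 and 25 tags lay between 35664391 and 35694751, and that of 27 tags, with a fold of 27.07, was the strong one. The widest gap of the window followed, 214.2 kb from 35694751 to 35908951. The last 5 peaks, up to chr21:35969171-35969231, had 27, 24, 74, 25 and 14 tags, and none was strong. The nearest peaks outside the window, chr21:34987591-34987631 with 35 tags below and chr21:36039851-36040071 with 74 tags above, lay 12.39 kb and 39.96 kb from its edges.

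The 10 peaks with the highest folds were spread over the locus and not confined to the run. Of these, 5 lay inside the gene, 3 of them in the run, 4 lay upstream and 1 downstream, with folds from 74.18 to 128.32. At the lowest inferred input were 8 of the 10, where the fold is set by the tag count alone. The 5 peaks with the most tags held 25.99% of the window's tags, and 2 of these were in the run.

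Close neighbours often differed in height. In the 20 pairs of consecutive peaks with centres under 500 bp apart, the higher peak had a median of 2.79 times the tags of the lower (range 1.10 to 18.2), and in 13 pairs the ratio was above 2. Both peaks were strong in 4 pairs, 1 in 11 pairs and neither in 5. Close pairs elsewhere in the list were not measured, so these values are not shown to be particular to RUNX1. The most unequal pair was that of 400 and 22 tags upstream, and the most equal that of 95 and 86 tags in the run. Whether such neighbours are separate sites or 1 site listed as several peaks was not tested.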

How the data were processed

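PROX1 ChIP-seq and input DNA were each sequenced as 1 library from SW480R cells, and the authors' list of ChIP peaks against input was used. No file of the input library was used here. Per the submitters' processing notes, positions are on hg18. Not given in the sources used here are the aligner, the peak caller with its threshold, and the depth of each library. The deposited list has no header, so its columns were read from their values. Deposited tag counts are whole numbers from 13 upward. The deposited fold is a ratio of ChIP to input tags, and the deposited p-value (highest 0.00099, p or q not stated) was used for no result. No peak is listed below a fold of 13.03. Widths are multiples of 20 bp, and coordinates are printed as listed.

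Inferred input was a whole number, within 0.02, for 65 of the 71 peaks and 91.6% of all peaks; elsewhere it is an approximation. Windows of 1 Mb began at whole Mb and peaks were assigned by centre. Mitochondrial peaks (33) were left out of all comparisons. Peaks named in the text were those of the run, the 10 highest folds, the 5 highest tag counts, and those at the bounds and gaps; other peaks that are named were chosen after their values were seen. The window, the lists and the comparisons were chosen with earlier results of these data known. Reads without molecular identifiers are not independent molecules. Python 3.11.15, numpy 2.4.6, pandas 2.3.3, scipy 1.17.1 and matplotlib 3.10.9 were used, and the counting steps were tested on simulated data.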

Additional observations from a re-analysis of the deposited data

How the results depend on the processing

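Of 35 values recomputed under another setting, 20 were classed as close to the reported one and 15 as moved. The close class was wide. It took in 51 peaks in the window (best folds alone) and 49 (without the run), against 71 reported. It also took in 21 peaks upstream (lowest inferred input alone), against 31. For the strong share, median tags and median spacing, close meant inside an interval around the reported value. For spacing this ran from 1310 to 5500 bp, so 4070 bp (best folds alone) counted as close to 2680 bp. When the list was limited to its 11725 best folds (lowest fold 19.05) the window ranked 1, with 20 peaks upstream, and 60.8% of its peaks were strong, as were 60.7% of the nuclear peaks there. With peaks within 1 kb counted once, the window held 46 peaks, 22 of them inside RUNX1, at a median spacing of 7790 bp. Their median was 71.5 tags (28 for nuclear peaks), and 56.5% were strong (32.8% for nuclear peaks). Joined peaks took the sum of their tags and their highest fold, so both values rise more where close peaks are common. Distances under 500 bp made up 28.6% in the window and 14.3% in the nuclear list. The wider contrasts are thus in part set by the joining. Joined within 5 kb instead of 10 kb, the run of 22 broke up, and its longest part held 7 peaks, so its size depends on the joining distance.

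With windows shifted by 500 kb, the fuller of those that overlap this one also ranked 4. Joining within 20 kb and gene bounds widened by 10 kb left the counts as reported. They could not change them, as no further peak lay that close to the run or to the bounds. With the 7101 nuclear peaks of most tags taken as strong, the share in the window was 52.1%, against 30.3% over all nuclear peaks. Settings with peaks of the lowest inferred input alone, or without the run, were added after the data were seen. At the lowest inferred input the window held 46 peaks, 19 inside the gene. These had a median of 25 tags (20 for nuclear peaks), and the 13 peaks left of the run, joined anew, gave a longest run of 6. Without the run, the window ranked 9 and 12 peaks were left inside the gene. Only peaks are listed, so places without a peak could hold signal below the authors' threshold, and depth there could not be assessed. Where input tags are many, more ChIP tags are required for a peak to appear. No paired analysis was possible because there is 1 library of each kind.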
